A study of Mus musculus with 5 samples.

Results

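Transcripts were compared between a pair of libraries of B16F10, a pigmented melanoma line of C57BL/6 mice. The numerator is the library labelled HIF-1α overexpression (genotype given as overexpression) and the denominator is the library labelled HIF-1α knockdown (genotype given as knockdown). They are 2 of the 5 libraries in the series, chosen by their labels alone, and every gene in the count table was compared. The other 3 groups, named here for context, are dynamic suspension culture, conventional 3D culture and shControl, all given as WT. By its title, the series asks how HIF-1α relates to stem-like melanoma cells and to the p53 pathway.

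Each group is 1 library made from a pool of 3 repeats. No difference below therefore has a replicate check, and all intervals cover counting error only. No treatment is recorded for any sample, and all of them share 1 growth protocol: serum-free DMEM/F12 medium without added growth factors, kept shaking at 60 to 80 rpm over 7 to 10 days, after which spheroids were chosen by size and shape. The labels do not say how HIF-1α was lowered or raised, whether a line is 1 clone, or when after the change the cells were taken. The column of the library labelled knockdown carries only the bare name of the line.

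The transcription factor HIF-1 joins HIF-1α, whose stability depends on oxygen, with a constant partner. In oxygenated cells prolyl hydroxylases mark the protein for destruction through the VHL ubiquitin ligase, and in hypoxia it escapes, pairs with ARNT and binds short hypoxia response elements beside its target genes. Those targets carry glucose uptake, glycolysis, lactate export, mitophagy, collagen maturation and blood vessel growth. Most of this control acts on the protein, so the Hif1a transcript is a check of the construct and not a measure of HIF-1 activity.

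Both columns hold plain counts, which summed to 15393189 in overexpression and 14803426 in the library labelled knockdown. Levels are CPM, counts scaled to a common library size with TMM factors, and ratios are log2 of the overexpression level over the level in the library labelled knockdown, with a prior count of 2. Genes averaging 1 CPM or more over this pair are called measured, so a measured gene below 1 CPM in 1 library passed only through the other. A gene was called higher or lower when its ratio passed 2-fold and the 95% counting interval excluded a ratio of 1. "Shared sequence" marks genes with at least 10% of their 100-base windows in transcripts of another gene as well, whose counts cannot be placed with certainty. Where a gene had 0 counts, up to 3 could have been missed, or 0.179 CPM in overexpression and 0.197 CPM in the library labelled knockdown.

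Of 12305 measured genes, 2155 were higher (17.5%) and 1825 were lower (14.8%) in overexpression, somewhat more in the first direction. The median log2 ratio was -0.03, with quartiles at -0.64 and 0.69. Differences beyond 8-fold were seen for 299 genes. Most measured genes of the cell cycle and of the amino acid stress response were lower, and most of the interferon response and the circadian clock were higher. Longer transcripts stood higher, with a median log2 ratio of 0.21 in the longest of 5 equal groups of own-sequence coding genes and -0.14 in the shortest. Of 538 long non-coding genes 230 were higher (42.8%). The part of transcript length and RNA class in the group results was not tested. In bulk RNA, fewer cells of a kind and less RNA per cell cannot be told apart.

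**Figure D1:**
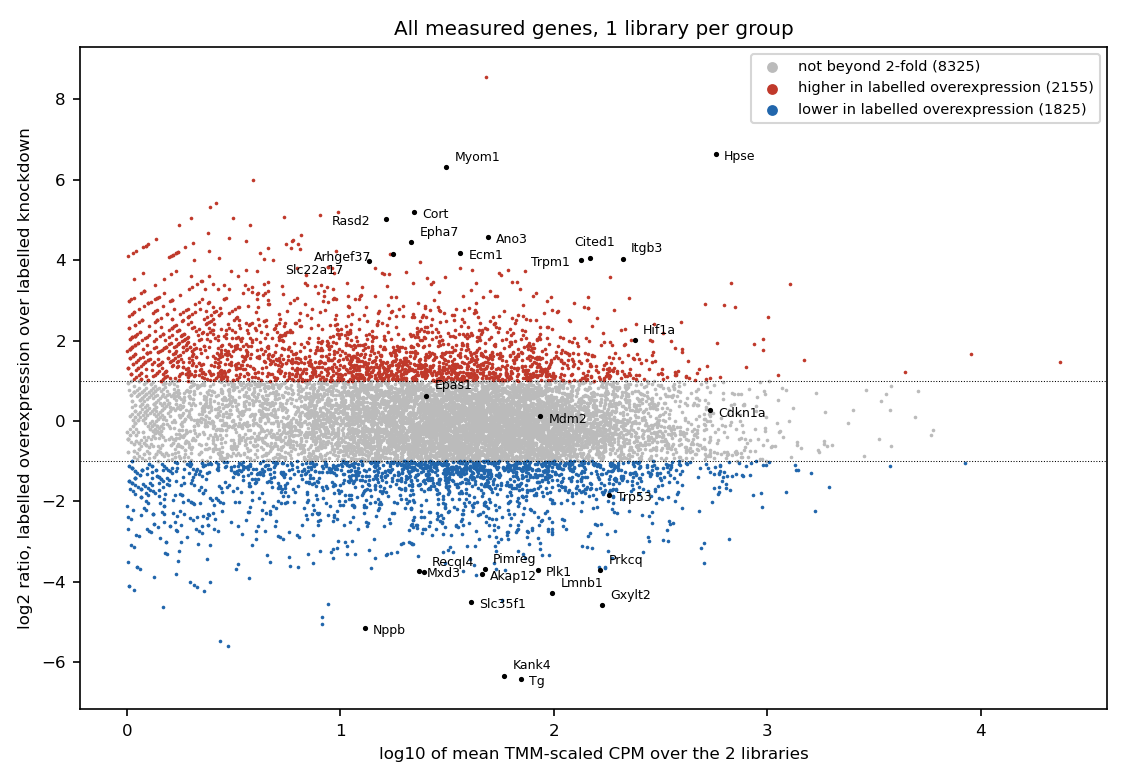
Log2 ratio of overexpression over the library labelled knockdown (vertical axis) against the log10 of mean TMM-scaled CPM (horizontal axis) for 12305 measured genes. Red points are 2155 genes higher and blue points 1825 genes lower beyond 2-fold, dotted lines mark log2 ratios of 1 and -1, and black points are named genes, from Hpse at 6.64 to Tg at -6.42. The highest red point is Kcnj13, which has shared sequence.

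Hif1a (GRCm38 chromosome 12, 73901375 to 73947530, plus strand, protein-coding) had 6455 counts in overexpression and 1449 counts in the library labelled knockdown. These are 384 CPM (95% Poisson interval 375.0 to 394) and 95.1 CPM (90.3 to 100.1), a log2 ratio of 2.01 with an interval of 1.93 to 2.10. Against each other the libraries thus stand in the order of their labels. Overexpression did not stand above dynamic suspension (390.5 CPM) or conventional 3D culture (542 CPM), both given as WT. Against shControl the library labelled knockdown does not follow its label, since Hif1a was 61.3 CPM in shControl (59.4 to 63.3). The Hif1a transcript of the library labelled knockdown was 1.55-fold higher than in shControl, and no direction below can be read as an effect of lowered Hif1a. The shControl column and those of the other cultures appear to hold estimated counts, since their low values pile up at 4 and 8, so their levels are a guide and not a matched unit.

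Among 12 measured HIF subunits, cofactors and oxygen sensors, 2 were higher, 1 was lower and 9 were not beyond 2-fold (median log2 ratio 0.18). That is 16.7% higher and 8.33% lower, against 17.5% and 14.8% of all genes. Egln3, a prolyl hydroxylase that is itself a HIF target, was 11.6 CPM in overexpression and 5.51 CPM in the library labelled knockdown (log2 ratio 1.05, interval 0.69 to 1.45). Arnt2, a neural relative of ARNT, was 0.238 CPM in overexpression and 2.23 CPM in the library labelled knockdown on only 4 and 34 counts. It passed the 1 CPM threshold only through the library labelled knockdown. Epas1, the gene of HIF-2α, was 30.7 CPM in overexpression and 19.8 CPM in the library labelled knockdown (log2 ratio 0.63, interval 0.42 to 0.84). Arnt, the constitutive partner, had a log2 ratio of 0.71, and Egln1, the main oxygen sensor, 0.61. Vhl (-0.13), the factor-inhibiting hydroxylase gene Hif1an (-0.14) and Egln2 (-0.34) lay just below 0, and Hif3a lay below 1 CPM.

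Glycolytic HIF targets leaned higher in overexpression, unevenly along the pathway. Of 22 measured genes, 6 were higher and 0 lower, or 27.3% against the 17.5% of all genes, with a median log2 ratio of 0.67. Eno2, a neuronal-type enolase, was 123 CPM in overexpression and 11.1 CPM in the library labelled knockdown (log2 ratio 3.46, interval 3.25 to 3.71). Aldoc, a brain-type aldolase, was 143 CPM in overexpression and 16.4 CPM in the library labelled knockdown (log2 ratio 3.12, interval 2.94 to 3.32). The forms of these enzymes used in most tissues differed less. Eno1 (shared sequence) had a log2 ratio of -0.23, and Aldoa one of 0.67.

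Pdk1, the kinase that keeps pyruvate out of the mitochondrion, was 123 CPM in overexpression and 35.0 CPM in the library labelled knockdown (log2 ratio 1.81, interval 1.67 to 1.95). Slc16a3, the lactate exporter MCT4, was 258 CPM in overexpression and 104 CPM in the library labelled knockdown (log2 ratio 1.31, interval 1.23 to 1.39). Both genes serve the route from glucose to exported lactate. The phosphofructokinase genes Pfkl (1.09) and Pfkm (1.09, shared sequence) were just past 2-fold. Ldha, lactate dehydrogenase, went the other way without passing the threshold, at 1488 CPM in overexpression and 2212 CPM in the library labelled knockdown (log2 ratio -0.57). The glucose transporter genes Slc2a1 (0.16) and Slc2a3 (-0.37) and the hexokinase gene Hk2 (0.28) lay within 2-fold.

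Of 33 measured hypoxia targets outside glycolysis, 12 were higher (36.4%, all genes 17.5%) and 1 was lower (3.03%, all genes 14.8%). The other 20 were not beyond 2-fold, and the median log2 ratio was 0.77. Rora, a nuclear receptor that also serves the circadian clock, was 43.6 CPM in overexpression and 5.91 CPM in the library labelled knockdown (log2 ratio 2.86, interval 2.57 to 3.22). Bnip3 (shared sequence), a mitophagy receptor, was 183 CPM in overexpression and 27.5 CPM in the library labelled knockdown (log2 ratio 2.73, interval 2.58 to 2.88). Ero1l, an oxidase for disulfide formation in the endoplasmic reticulum, was 669 CPM in overexpression and 122 CPM in the library labelled knockdown (log2 ratio 2.45, interval 2.38 to 2.52). The collagen-modifying enzymes followed: P4ha1, a prolyl hydroxylase subunit, was 335 CPM in overexpression and 89.8 CPM in the library labelled knockdown (log2 ratio 1.90). Plod2, a lysyl hydroxylase, was 213 CPM in overexpression and 66.2 CPM in the library labelled knockdown (log2 ratio 1.69).

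The remaining higher members were Bhlhe41 (shared sequence), a transcriptional repressor (1.67); Adm, the peptide adrenomedullin (1.53); Hmox1, heme oxygenase (1.52); Car9, a carbonic anhydrase (1.5); Fam162a (1.03); Ak4, an adenylate kinase (1.0); and the sterol sensor partner Insig2 (1.0). Angptl4, a secreted lipase inhibitor, was the exception at 0.357 CPM in overexpression and 6.10 CPM in the library labelled knockdown (log2 ratio -3.69, interval -5.58 to -2.92). Angptl4 passed the 1 CPM threshold only through the library labelled knockdown. Several textbook targets stayed within 2-fold, including Vegfa (0.83), Ndrg1 (0.16), Ddit4 (0.47), Kdm3a (0.35) and Hilpda (-0.33). The genes Lox, Stc1, Stc2 and Ppfia4 lay below 1 CPM.

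The core of the hypoxia response element was looked for in the 250 bases before RefSeq gene starts (GRCm38.p6), as ACGTG or GCGTG on either strand. RefSeq windows matched 21 of the 22 glycolytic genes and 23 of the 33 other targets. A match stood in 26 of 34 glycolytic windows (76.5%) and in 28 of 35 windows of the other targets (80%). The share was 56.9% of 11791 windows of all measured genes and 38.6% of 32851 windows of all genes. So common a motif is a description of these windows and not a bound site. The members of own sequence with the largest ratio that hold it are shown with each match, on either strand, in capitals, Aldoc at chr11:78322823-78323072 (plus strand) and Rora at chr9:68653536-68653785 (plus strand).
Aldoc: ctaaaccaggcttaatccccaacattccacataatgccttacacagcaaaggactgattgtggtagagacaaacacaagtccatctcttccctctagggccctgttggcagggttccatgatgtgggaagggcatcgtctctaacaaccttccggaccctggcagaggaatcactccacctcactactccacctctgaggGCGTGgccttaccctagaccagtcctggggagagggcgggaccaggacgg
Rora: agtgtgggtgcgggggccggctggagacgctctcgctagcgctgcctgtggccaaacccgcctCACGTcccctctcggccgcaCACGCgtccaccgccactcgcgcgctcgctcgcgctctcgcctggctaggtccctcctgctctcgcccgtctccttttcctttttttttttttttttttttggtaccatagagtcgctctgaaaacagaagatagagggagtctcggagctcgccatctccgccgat

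Trp53 itself was among the lower genes. Trp53, the gene of p53 (GRCm38 chromosome 11, 69580359 to 69591873), was 79.0 CPM in overexpression and 283 CPM in the library labelled knockdown (log2 ratio -1.84, interval -1.93 to -1.75). Mdm2, the ubiquitin ligase that removes p53 and is also its target, was 89.3 CPM in overexpression and 82.8 CPM in the library labelled knockdown (log2 ratio 0.11, interval 0.00 to 0.22). Mdm4, its relative that blocks p53 transactivation, was 228 CPM in overexpression and 54.9 CPM in the library labelled knockdown (log2 ratio 2.06, interval 1.95 to 2.17). Overexpression therefore had the lower Trp53 and the higher Mdm4 transcript of the pair, with Mdm2 within 2-fold.

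In all, 2 of 20 measured p53 regulators were higher and 4 lower (median log2 ratio -0.23). The higher share was under the 17.5% of all genes, and the lower share was only somewhat above the 14.8% of all genes. Atr, the kinase that senses stalled replication, was 38 CPM in overexpression and 10.6 CPM in the library labelled knockdown (log2 ratio 1.83, interval 1.59 to 2.10). Chek1, the kinase it activates, was 5.24 CPM in overexpression and 24.8 CPM in the library labelled knockdown (log2 ratio -2.22, interval -2.60 to -1.91). The kinase and its substrate thus stood on opposite sides. Usp10, a p53 deubiquitinase, had a log2 ratio of -1.23, and Chek2, a DNA damage kinase, -1.02. Atm (0.23), Usp7 (-0.22) and Hipk2 (-0.56) were within 2-fold, and Cdkn2a, Trp63 and Trp73 lay below 1 CPM.

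The p53 targets split in both directions. Of 36 measured, 8 were higher (22.2%) and 7 lower (19.4%), with a median log2 ratio of 0.07. Both shares were only a little above the 17.5% and 14.8% of all genes. Higher were Rrm2b, the p53-induced ribonucleotide reductase subunit, at 45.7 CPM in overexpression and 7.81 CPM in the library labelled knockdown (log2 ratio 2.53, interval 2.27 to 2.84), and Trp53inp1, a p53 cofactor in apoptosis and autophagy, at 253 CPM in overexpression and 49.3 CPM in the library labelled knockdown (log2 ratio 2.36, interval 2.25 to 2.47). They were joined by the tetraspanin gene Cd82 (1.92), the translesion polymerase gene Polk (1.76), Ccng1 (1.25), the receptor gene Eda2r (1.20), the Akt inhibitor gene Phlda3 (1.19) and the excision nuclease gene Ercc5 (1.17). Rrm2b, Polk and Ercc5 serve DNA synthesis and repair.

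Lower targets were Thbs1, an antiangiogenic matrix protein, at 2.08 CPM in overexpression and 11.8 CPM in the library labelled knockdown (log2 ratio -2.43), and Sesn2, a leucine sensor that ATF4 also induces, at 63.1 CPM in overexpression and 194 CPM in the library labelled knockdown (-1.62). Gpx1 (-1.45), the mitotic gene Gtse1 (-1.40), Pidd1 (-1.30), Sfn (-1.30) and the pro-apoptotic PUMA gene Bbc3 (-1.14) were lower as well. Cdkn1a, the cell cycle inhibitor p21 and the best known p53 target, was 586 CPM in overexpression and 489 CPM in the library labelled knockdown (log2 ratio 0.26, interval 0.22 to 0.30) and did not pass 2-fold. Bax (-0.77), Zmat3 (-0.06) and Btg2 (-0.04) were also within 2-fold.

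None of the 16 measured stem-like markers was higher in overexpression, and 6 were lower (37.5% against 14.8% of all genes; median log2 ratio -0.60). With scaling by total counts or by DESeq2 size factors 1 was higher, and with a mean of at least 10 CPM 3 were lower. Nes, the neural progenitor filament nestin, was 24.1 CPM in overexpression and 120.0 CPM in the library labelled knockdown (log2 ratio -2.31, interval -2.47 to -2.16). Ezh2, the Polycomb methyltransferase, was 27.9 CPM in overexpression and 134 CPM in the library labelled knockdown (log2 ratio -2.26, interval -2.42 to -2.12). Myc was 33.8 CPM in overexpression and 102 CPM in the library labelled knockdown (log2 ratio -1.59, interval -1.74 to -1.46). Aldh1a3, a retinaldehyde dehydrogenase used to sort tumour-initiating cells, had a log2 ratio of -2.02.

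Ngfr (4 counts in overexpression and 40 in the library labelled knockdown) and Klf4 (6 and 43 counts) were lower on few counts. Both passed the 1 CPM threshold only through the library labelled knockdown. Ezh2 and Myc are also genes of dividing cells, and the cell cycle list moved in the same direction. The part of that list in their difference was not tested. Cd44 (-0.21), Sox10 (-0.56), Abcg2 (-0.17), Abcb1b (0.38) and Bmi1 (0.54) stayed within 2-fold. The histone demethylase gene Kdm5b, a marker of slow-cycling melanoma cells, was 137 CPM in overexpression and 68.7 CPM in the library labelled knockdown (log2 ratio 0.99, interval 0.89 to 1.10). Another 13 markers did not reach 1 CPM, including the pluripotency genes Nanog, Pou5f1 and Sox2 and the melanoma stem cell marker Abcb5.

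**Figure D2:**
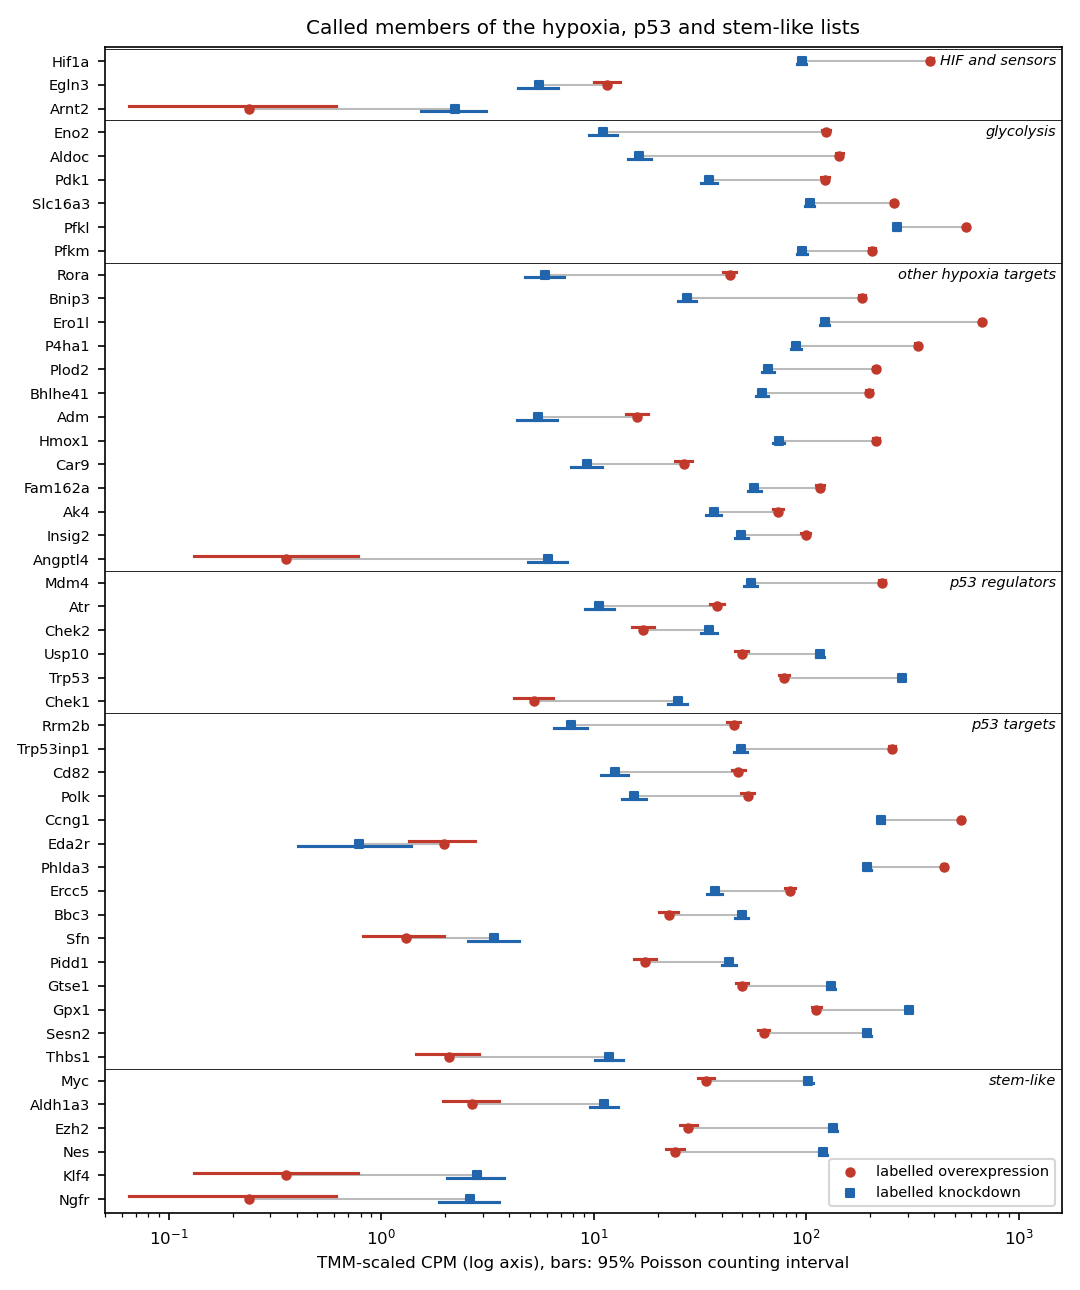
Levels in overexpression (red circles) and in the library labelled knockdown (blue squares) of every member beyond 2-fold in 6 gene lists, in TMM-scaled CPM on a log axis, with 95% Poisson counting intervals as bars. Hypoxia genes lie to the right in overexpression apart from Arnt2 and Angptl4, p53 targets lie on both sides, and all 6 stem-like markers lie to the left.

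Cell cycle genes showed the largest shift of any list with 5 or more measured members. Of 48 measured genes of mitosis and DNA replication, 41 were lower (85.4%, all genes 14.8%) and 0 higher (all genes 17.5%). The median log2 ratio was -2.45. Plk1, the kinase that drives mitotic entry, was 11.9 CPM in overexpression and 156 CPM in the library labelled knockdown (log2 ratio -3.70, interval -3.93 to -3.51). Cdc20, the activator of the anaphase-promoting complex, was 6.79 CPM in overexpression and 74.2 CPM in the library labelled knockdown (log2 ratio -3.43, interval -3.74 to -3.17). Kif20a (shared sequence), a kinesin of cytokinesis, was 5.18 CPM in overexpression and 70.1 CPM in the library labelled knockdown (log2 ratio -3.73). Mitosis genes were thus low in overexpression, and replication genes were as well.

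Mcm7, a subunit of the replicative helicase, was 25.4 CPM in overexpression and 323 CPM in the library labelled knockdown (log2 ratio -3.66, interval -3.81 to -3.52). The other subunit genes Mcm2 (-3.03), Mcm3 (-2.99), Mcm4 (-2.52), Mcm5 (-3.24) and Mcm6 (-2.90) were lower alongside it. Tyms, thymidylate synthase, was 8.28 CPM in overexpression and 96.9 CPM in the library labelled knockdown (log2 ratio -3.53). The transcription factors of the programme were lower too: Mybl2 (shared sequence) had a log2 ratio of -3.85, Foxm1 -3.64 and E2f1 -1.08. Mki67, the Ki-67 proliferation marker, was 36.6 CPM in overexpression and 112 CPM in the library labelled knockdown (-1.61). Levels in shControl lay on the side of the library labelled knockdown for Plk1 (116 CPM), Cdc20 (90.9) and Mcm7 (235). The 7 genes within 2-fold were Ccnd1 (shared sequence, -0.94), Ccnd2 (0.77), Ccnd3 (-0.19), Cdk2 (0.56), Cdk6 (-0.34), Brca1 (0.57) and Cenpe (-0.81). Among the D-type cyclins Ccnd1 leaned the way of the list just short of 2-fold, Ccnd3 lay near 0 and Ccnd2 leaned higher.

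Promoters of mitotic genes often carry the cell cycle homology region, TTTGAA, through which the DREAM complex represses them. RefSeq windows matched 37 of the 48 genes. On either strand it stood in 8 of 40 windows of the cell cycle list (20%), against 10.3% of windows of measured genes and 16% of all windows. Cdc20 is the member of own sequence with the largest ratio that holds it, shown for chr4:118437344-118437593 (minus strand) with the match in capitals, beginning 18 bases before the start.
Cdc20: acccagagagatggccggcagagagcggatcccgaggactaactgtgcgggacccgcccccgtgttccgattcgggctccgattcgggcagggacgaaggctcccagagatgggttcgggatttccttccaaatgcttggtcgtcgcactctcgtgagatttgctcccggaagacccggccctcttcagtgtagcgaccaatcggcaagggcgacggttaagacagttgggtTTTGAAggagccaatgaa

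Histone transcripts that end up in poly(A) libraries went with replication only in part. Of 17 measured histone genes, 8 were lower (47.1%, all genes 14.8%) and 4 higher (23.5%, all genes 17.5%), with a median log2 ratio of -0.67. Among members of own sequence 2 were lower and 2 higher (median -0.45). The lower count was 21 with no filter and 3 at a mean of at least 10 CPM. H2afz (shared sequence), a variant H2A, was 90.02 CPM in overexpression and 589 CPM in the library labelled knockdown (log2 ratio -2.71), and H2afx, the variant phosphorylated at DNA breaks, had -2.23. Hist1h3c (shared sequence) had 0 counts in overexpression and 91 in the library labelled knockdown, at least 33.4-fold lower by the floor of 3 counts. It was measured only through the library labelled knockdown. The linker histone gene Hist1h1c, by contrast, was 75.8 CPM in overexpression and 19.8 CPM in the library labelled knockdown (log2 ratio 1.93), and Hist2h2be had 1.74.

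The integrated stress response, in which ATF4 induces amino acid synthesis and transport, was the second of the lists that were broadly lower in overexpression. Of 27 measured genes, 21 were lower (77.8%, all genes 14.8%) and 1 higher (3.70%, all genes 17.5%), with a median log2 ratio of -2.04. Atf4 itself was 216 CPM in overexpression and 881 CPM in the library labelled knockdown (log2 ratio -2.03, interval -2.08 to -1.97). Its targets in serine and one-carbon metabolism followed it. Shmt2, mitochondrial serine hydroxymethyltransferase, was 80.6 CPM in overexpression and 930.3 CPM in the library labelled knockdown (log2 ratio -3.53, interval -3.61 to -3.45). Phgdh (shared sequence), the first enzyme of serine synthesis, was 151 CPM in overexpression and 1167 CPM in the library labelled knockdown (log2 ratio -2.94).

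Psat1 (-2.55), Psph (-2.68) and Mthfd2 (-1.78) completed that pathway. Chac1, which degrades glutathione, was 34.9 CPM in overexpression and 255 CPM in the library labelled knockdown (log2 ratio -2.87, interval -3.0 to -2.75). The asparagine synthetase gene Asns had a log2 ratio of -2.23, the pseudokinase gene Trib3 -2.73 and the amino acid transporter gene Slc7a5 -1.81. Cth, cystathionine γ-lyase, was 5.60 CPM in overexpression and 55.2 CPM in the library labelled knockdown (-3.27), and Cebpb (shared sequence), a partner of ATF4, 8.69 CPM in overexpression and 76.5 CPM in the library labelled knockdown (-3.12). Vldlr, a lipoprotein receptor, had 6 counts in overexpression and 108 in the library labelled knockdown (-3.90). It was measured only through the library labelled knockdown. Cbs was the single higher member (1.41), and Ddit3, the gene of CHOP, did not pass 2-fold (-0.32). In shControl Shmt2 stood between the 2 libraries at 371 CPM, as did Chac1 at 43.5 CPM.

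The C/EBP-ATF element to which ATF4 binds, searched as TGATGNAA on either strand, stood in 7 of 28 windows of this list (25 of the 27 genes matched; 25%), against 1.9% of windows of measured genes and 3.45% of all windows. Chac1 is the member of own sequence and at least 10 CPM with the largest ratio that holds it, shown for chr2:119350992-119351241 (plus strand) with the match in capitals.
Chac1: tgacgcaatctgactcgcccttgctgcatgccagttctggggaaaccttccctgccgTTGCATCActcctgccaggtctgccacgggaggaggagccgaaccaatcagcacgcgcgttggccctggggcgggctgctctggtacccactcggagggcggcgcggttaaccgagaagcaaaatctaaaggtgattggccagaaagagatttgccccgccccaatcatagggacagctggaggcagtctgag

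Genes of protein synthesis leaned lower by smaller steps. Of 82 measured cytosolic ribosomal protein genes, 25 were lower (30.5%, all genes 14.8%) and 1 higher (1.22%, all genes 17.5%). The median log2 ratio was -0.84, and 81 of 82 had a ratio below 0. The lower count was 16 when libraries were scaled by total counts. Most share sequence with other genes, pseudogenes included, and of the members of own sequence 7 were lower and 0 higher (median -0.83). Rps27a (shared sequence), a ubiquitin fusion, was 99.8 CPM in overexpression and 478 CPM in the library labelled knockdown (log2 ratio -2.26). Rpl24 (shared sequence) was the higher one (1.17) at a low count of 87 in overexpression and 34 in the library labelled knockdown.

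Of 77 mitochondrial ribosomal protein genes, 11 were lower and 0 higher (median log2 ratio -0.53), led by Mrps22 (-1.71), Mrpl3 (-1.23), Mrpl20 (-1.20) and Mrpl40 (-1.17). Of 35 proteasome subunit genes, 4 were lower and 0 higher (median -0.58): Psmc4 (-1.41), Psmd9 (shared sequence, -1.14), Psmd10 (-1.11) and Psmc3 (-1.05). Their shares called (14.3% and 11.4%) were below the 14.8% of all genes, although both medians lay well under the -0.03 of all genes.

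Respiratory chain genes of the nucleus hardly moved, with 0 of 56 beyond 2-fold in either direction and a median log2 ratio of -0.13. Of all genes 17.5% were higher and 14.8% lower. Among 13 genes encoded in mitochondrial DNA, 3 were higher (23.1%) and 0 lower (median 0.69): mt-Co2 (1.65), mt-Co1 (1.46) and mt-Co3 (1.14), subunits of cytochrome oxidase. All 3 share sequence with other genes, and the members of own sequence had a median of 0.12 with 0 beyond 2-fold. mt-Co1 alone was 34636 CPM in overexpression and 12638 CPM in the library labelled knockdown.

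**Figure D3:**
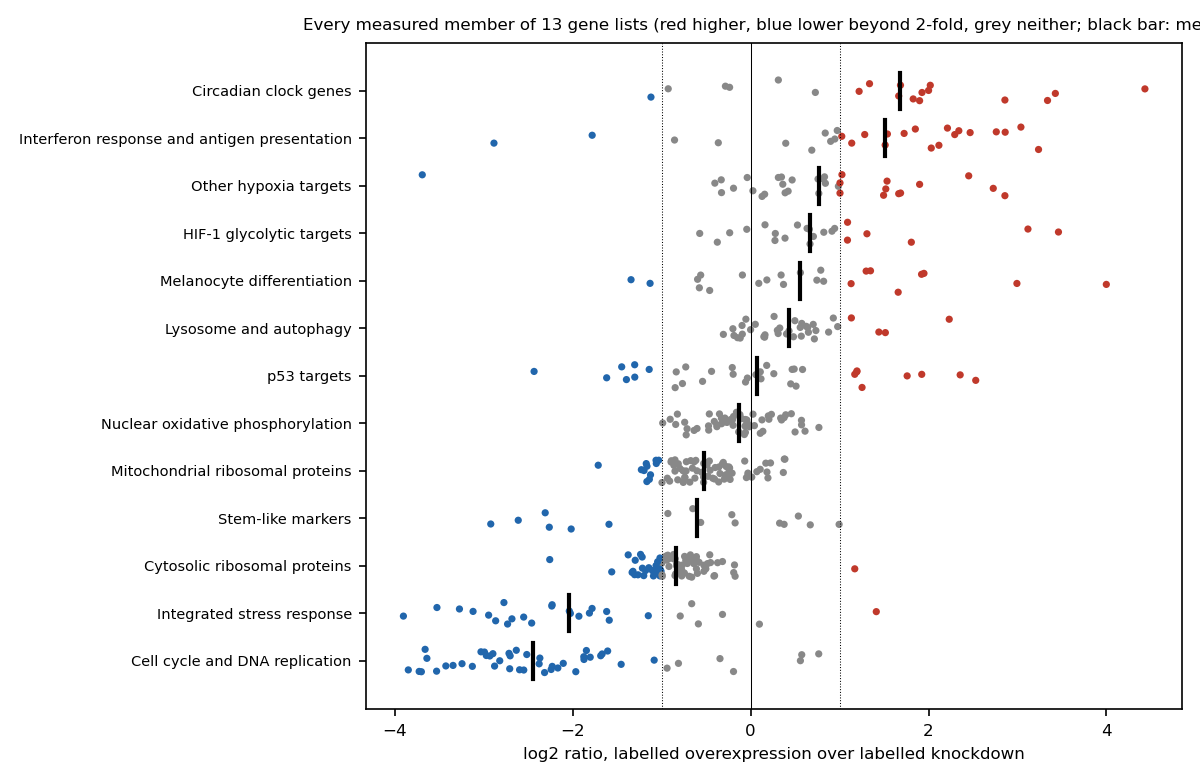
Log2 ratio of overexpression over the library labelled knockdown for every measured member of 13 gene lists, with members spread vertically within a list for legibility. Red points are higher and blue points lower beyond 2-fold, and black bars are medians, which run from 1.69 for the circadian clock to -2.45 for the cell cycle.

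Interferon-stimulated genes and the class I antigen machinery stood higher in overexpression. Of 27 measured genes, 17 were higher (63.0% against 17.5% of all genes) and 2 lower, with a median log2 ratio of 1.51. Rsad2, the antiviral enzyme viperin, was 90.8 CPM in overexpression and 9.52 CPM in the library labelled knockdown (log2 ratio 3.24, interval 3.01 to 3.51). Cd274, the gene of the checkpoint ligand PD-L1, was 34.6 CPM in overexpression and 4.66 CPM in the library labelled knockdown (log2 ratio 2.86, interval 2.54 to 3.27). Both are inducible by interferon. Among sensors of viral RNA, Ifih1 had a log2 ratio of 2.21 and Ddx58 2.12, and Irf9, a subunit of the interferon-activated factor ISGF3, had 1.85.

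Tapbp (shared sequence), which loads peptides onto class I molecules, was 156 CPM in overexpression and 30.7 CPM in the library labelled knockdown (log2 ratio 2.34). The peptide transporter gene Tap1 (2.29) and the class I heavy chain gene H2-K1 (1.51) were higher with it, while B2m (0.84) and H2-D1 (0.97) fell just short. Ifit3 (shared sequence, 3.04) and Mx2 (2.76, on 57 counts in overexpression and 6 in the library labelled knockdown) were among the highest ratios at low levels. Mx2 was measured only through overexpression. The chemokine gene Cxcl10 was the other way, at 1.43 CPM in overexpression and 11.3 CPM in the library labelled knockdown (log2 ratio -2.88, interval -3.67 to -2.37), as was Gbp2 (-1.78). With a mean of at least 10 CPM required, 7 genes of the list were higher and 0 lower, so most of the calls rest on genes of low level. Of 13 immune cell markers only Cd68 was measured, passing the threshold only through overexpression, where it was higher (3.22). Their summed level was 8.81 CPM in overexpression and 1.25 CPM in the library labelled knockdown, with Ptprc, Cd3e and Itgam at 0 in both. The part of such cells in the interferon result was not tested.

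Of 12 measured NF-kappaB and cytokine genes, 1 was higher, the atypical inhibitor gene Nfkbiz (1.90), and 4 were lower: Nfkb1 (-1.39), Lif (-1.66), Bcl3 (-2.73) and the chemokine gene Cx3cl1. Cx3cl1 had 2 counts in overexpression and 68 in the library labelled knockdown, a ratio of 0.0267 (counting interval 0.00317 to 0.10). It was measured only through the library labelled knockdown. A further 16 members lay below 1 CPM, so most of this list was below the threshold. Of the measured 12, 8.33% were higher and 33.3% lower, against 17.5% and 14.8% of all genes. At a mean of at least 10 CPM 1 member was higher and 1 lower.

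The core of the interferon-stimulated response element, GAAA and GAAA with any 2 bases between, on either strand, stood in 9 of 25 windows of the interferon list (21 of the 27 genes matched; 36%), against 2.26% of windows of measured genes and 2.98% of all windows. Among windows of the members called higher, 3 of 13 held it, so most matches lay in other members. The element is shown for Rsad2 at chr12:26456453-26456702 (minus strand), the member of own sequence with the largest ratio, with the match in capitals.
Rsad2: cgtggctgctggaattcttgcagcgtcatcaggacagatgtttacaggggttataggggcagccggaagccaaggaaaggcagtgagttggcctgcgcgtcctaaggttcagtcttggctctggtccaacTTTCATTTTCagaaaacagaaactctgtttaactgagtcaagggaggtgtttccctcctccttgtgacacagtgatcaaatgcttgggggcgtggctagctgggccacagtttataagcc

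Pigment cell genes were more often higher than lower in overexpression. Of 23 measured genes, 8 were higher (34.8%, all genes 17.5%) and 2 lower (8.70%, all genes 14.8%), with a median log2 ratio of 0.56. Trpm1, a melanocyte cation channel, was 252 CPM in overexpression and 15.6 CPM in the library labelled knockdown (log2 ratio 4.0, interval 3.82 to 4.21). Oca2, a melanosome anion channel, was 164 CPM in overexpression and 20.5 CPM in the library labelled knockdown (log2 ratio 2.99, interval 2.83 to 3.17). Tyr, tyrosinase, the rate-limiting enzyme of melanin synthesis, was 1378 CPM in overexpression and 364 CPM in the library labelled knockdown (log2 ratio 1.92, interval 1.88 to 1.97).

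Dct, dopachrome tautomerase, was 13722 CPM in overexpression and 4345 CPM in the library labelled knockdown (log2 ratio 1.66), and Lyst, a regulator of lysosome-related organelles, had 1.95. Gpr143 (1.35), Slc24a5 (shared sequence, 1.30) and Slc45a2 (1.13) were higher as well. Mitf, the master regulator of the lineage, was 158 CPM in overexpression and 139.5 CPM in the library labelled knockdown (log2 ratio 0.18), and Sox10 had -0.56, both within 2-fold. Lower were Mlph, which links melanosomes to the motor myosin Va (-1.34), and Gpnmb, a melanosomal glycoprotein, at 2362 CPM in overexpression and 5171 CPM in the library labelled knockdown (-1.13). Trpm1 in shControl was 339 CPM, above both libraries, and Tyr was 942 CPM, between them.

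The M-box to which MITF binds, TCATGTG on either strand, stood in 6 of 20 windows of the pigment list (15 of the 23 genes matched; 30%), against 1.77% of windows of measured genes and 3.25% of all windows. Trpm1, which has the largest ratio of the list, holds it in the window shown for chr7:64153585-64153834 (plus strand), with the match in capitals.
Trpm1: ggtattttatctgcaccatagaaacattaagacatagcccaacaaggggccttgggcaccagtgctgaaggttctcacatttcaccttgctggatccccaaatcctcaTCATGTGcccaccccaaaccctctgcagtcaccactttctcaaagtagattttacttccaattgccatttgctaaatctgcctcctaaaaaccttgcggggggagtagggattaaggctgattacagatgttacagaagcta

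Lysosome and autophagy genes leaned the same way with smaller ratios. Of 37 measured, 4 were higher and 0 lower (10.8%, under the 17.5% of all genes), although the median log2 ratio was 0.43. Optn, a mitophagy adaptor, was 120.5 CPM in overexpression and 25.5 CPM in the library labelled knockdown (log2 ratio 2.23, interval 2.08 to 2.40). Ctsd (shared sequence, 1.51), Lamp2 (1.44) and Gabarapl1 (shared sequence, 1.13) were the others.

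Genes of the circadian clock had the highest share of higher members among lists with more than 10 measured genes. Of 19 measured, 13 were higher (68.4%, all genes 17.5%) and 1 lower (5.26%, all genes 14.8%), with a median log2 ratio of 1.69. Dbp (shared sequence), an output factor of the clock, was 78.8 CPM in overexpression and 7.22 CPM in the library labelled knockdown (log2 ratio 3.43, interval 3.17 to 3.74). Per3, a core repressor, was 23.0 CPM in overexpression and 2.17 CPM in the library labelled knockdown (log2 ratio 3.34, interval 2.90 to 3.97). Per2 had 67 counts in overexpression and 1 in the library labelled knockdown, a ratio of 60.8 (counting interval 10.5 to 2436). It passed the 1 CPM threshold only through overexpression.

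Nr1d2 (2.02) and Nr1d1 (1.83), the REV-ERB repressors, Tef (2.0), Clock (1.90), Per1 (1.34) and Cry2 (1.22) were higher too. Arntl, the gene of the activator BMAL1 that REV-ERB represses, was the single lower member, at 6.85 CPM in overexpression and 15 CPM in the library labelled knockdown (log2 ratio -1.12, interval -1.47 to -0.81). The higher genes thus included Clock as well as repressor and output genes, on the opposite side from Arntl. The labels give no time of day at which the cells were taken.

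The canonical E-box CACGTG, bound by CLOCK and BMAL1, stood in 6 of 24 windows of the clock list (16 of the 19 genes matched; 25%), against 8.45% of windows of measured genes and 6.02% of all windows. It contains the ACGTG searched above. Tef, a relative of Dbp, is the member of own sequence and at least 10 CPM with the largest ratio that holds it, shown for chr15:81802423-81802672 (plus strand) with the match in capitals.
Tef: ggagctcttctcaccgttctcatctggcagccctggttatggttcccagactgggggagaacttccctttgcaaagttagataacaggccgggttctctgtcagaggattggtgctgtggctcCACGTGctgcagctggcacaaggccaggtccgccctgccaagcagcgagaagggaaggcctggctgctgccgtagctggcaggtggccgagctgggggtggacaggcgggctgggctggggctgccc

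Matrix genes leaned lower and cell-surface genes of invasion split. Of 18 measured matrix genes, 9 were lower (50.0%, all genes 14.8%) and 2 higher (11.1%, all genes 17.5%), with a median log2 ratio of -0.99. At a mean of at least 10 CPM 4 were lower and 1 higher. Fn1, fibronectin, was 13 CPM in overexpression and 130.0 CPM in the library labelled knockdown (log2 ratio -3.31, interval -3.53 to -3.12). Nid2 (-2.29), Col5a1 (-1.62) and Lamc1 (-1.15) were lower as well, and Col1a2 had 0 counts in overexpression and 33 in the library labelled knockdown, at least 12.1-fold lower. The laminin gene Lama5 was higher, at 266 CPM in overexpression and 112 CPM in the library labelled knockdown (log2 ratio 1.25). So was Spp1, osteopontin (3.0, on 50 counts in overexpression and 4 in the library labelled knockdown). Spp1 was measured only through overexpression.

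Of 10 fibroblast markers 4 were measured, 3 lower and 0 higher. Their summed level was 15.8 CPM in overexpression and 35.6 CPM in the library labelled knockdown. Dcn, Lum, Acta2, Thy1 and Fap had 0 counts in both libraries. The collagen genes Col1a1 and Col1a2 also belong to the matrix list, so the 2 lists are not independent. Col1a2, with 0 counts in overexpression, passed the 1 CPM threshold only through the library labelled knockdown. The part of such cells in the matrix result was not tested.

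Hpse, heparanase, which cuts heparan sulfate in basement membranes, had the largest ratio of all own-sequence coding genes averaging at least 10 CPM (GRCm38 chromosome 5, 100679484 to 100719716). It was 1136 CPM in overexpression and 11.3 CPM in the library labelled knockdown (log2 ratio 6.64, interval 6.44 to 6.88). Itgb3, the integrin β3 chain, was 396 CPM in overexpression and 24.0 CPM in the library labelled knockdown (log2 ratio 4.04, interval 3.89 to 4.20). Its partner Itgav was 335 CPM in overexpression and 108 CPM in the library labelled knockdown (log2 ratio 1.63), so both chains of the vitronectin receptor αvβ3 were higher. Adam23, an inactive metalloprotease that binds αvβ3, had 1.77. Hpse was high outside this pair of libraries too, at 350 CPM in dynamic suspension and 997 CPM in conventional 3D culture, against 28.9 CPM in shControl.

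In the list of proteases, integrins and invasion genes, 9 of 34 measured were higher (26.5%) and 6 lower (17.65%). The shares of all genes were 17.5% and 14.8%. The list's median log2 ratio of -0.05 turns to 0.04 when libraries are scaled by total counts. On the lower side, Mcam, the melanoma adhesion molecule, was 32.2 CPM in overexpression and 344 CPM in the library labelled knockdown (log2 ratio -3.41, interval -3.55 to -3.29). The adhesion gene L1cam had a log2 ratio of -2.63, the actin-bundling fascin gene Fscn1 -2.42, Plat, tissue plasminogen activator, -2.05, and Cdh2, N-cadherin, -1.98. Adhesion genes thus stood on both sides, with the αvβ3 chains higher and Mcam, L1cam and Cdh2 lower.

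YAP and TEAD targets were lower in 6 of 23 measured genes and higher in 1 (median log2 ratio -0.58). That is 26.1% lower and 4.35% higher, against 14.8% and 17.5% of all genes. Ccn1, a matricellular protein, was 15.8 CPM in overexpression and 76.9 CPM in the library labelled knockdown (log2 ratio -2.28), and Amotl2, a feedback inhibitor, 24.9 CPM in overexpression and 99.7 CPM in the library labelled knockdown (-2.0). Birc5 (-2.93) is also a mitotic gene, and Ccn2 (shared sequence, -2.08) was low in both libraries. Axl, a receptor kinase, was the higher one, at 124 CPM in overexpression and 46.2 CPM in the library labelled knockdown (1.42). Among 17 Wnt and TGF-β targets 5 were lower, namely Pmepa1 (-2.99), Id3 (-2.47), Smad6 (-2.44), Id2 (-1.21) and Smad7 (-1.04). The ligand gene Tgfb1 was higher, at 108 CPM in overexpression and 32.6 CPM in the library labelled knockdown (1.72). Lower members were 29.4% of that list, against 14.8% of all genes. At a mean of at least 10 CPM 1 of its genes was lower and 1 higher. The list's median of -0.06 turns to 0.02 under scaling by total counts.

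**Figure D4:**
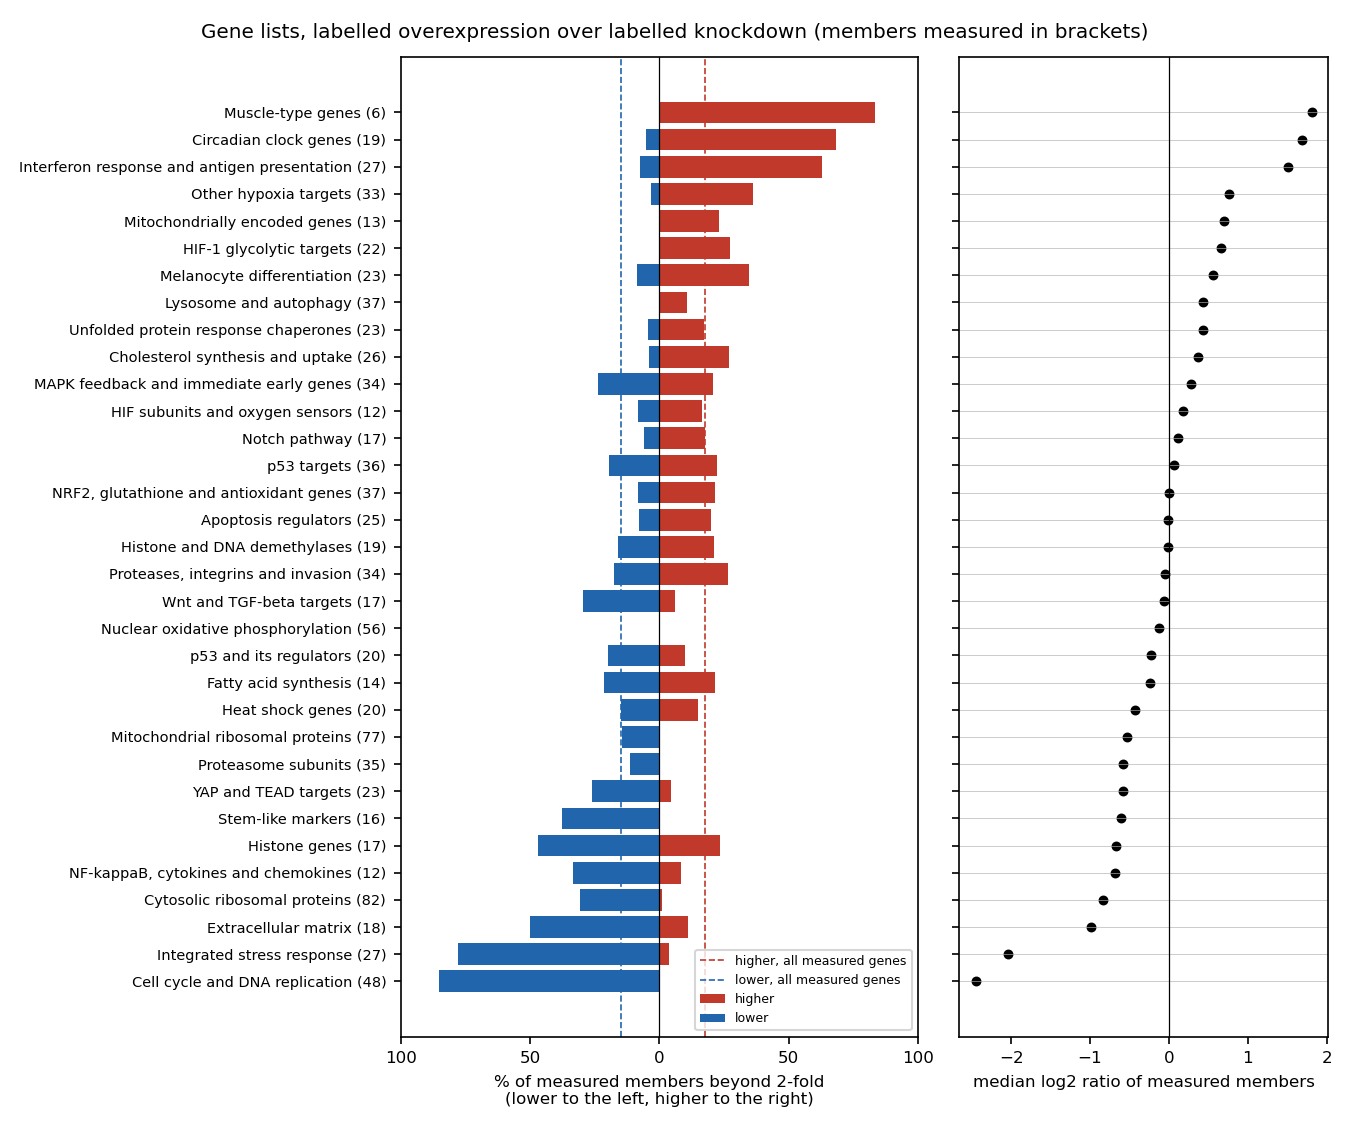
Left, the percentage of measured members beyond 2-fold in each of 33 gene lists (red bars higher in overexpression, blue bars lower; dashed lines, the 17.5% higher and 14.8% lower of all measured genes). Right, the median log2 ratio of each list, from -2.45 for the cell cycle (48 genes) to 1.81 for muscle-type genes (6 genes).

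Sterol genes leaned higher and fatty acid genes split. Of 26 measured genes of cholesterol synthesis and uptake, 7 were higher (26.9%, against 17.5% of all genes) and 1 lower (median log2 ratio 0.37). Insig1, the sterol-sensing brake on SREBP processing and its target, was 497 CPM in overexpression and 93.7 CPM in the library labelled knockdown (log2 ratio 2.41, interval 2.33 to 2.49). Stard4 (1.68), Tm7sf2 (1.49) and Fdps (shared sequence, 1.46) were next. Of 14 fatty acid genes, 3 were higher (Thrsp 4.29 on 190 counts in overexpression and 7 in the library labelled knockdown, Me1 1.20 with shared sequence, Acss2 1.17) and 3 lower (Fads2 -1.32, Srebf1 -1.24, Fads1 -1.09). Thrsp was measured only through overexpression. The desaturase genes and their regulator Srebf1 were on the same, lower side. Each side was 21.4% of the fatty acid list, against 17.5% higher and 14.8% lower of all genes.

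Other stress programmes were mixed. In the unfolded protein response, 4 of 23 chaperone and sensor genes were higher (17.4%, near the 17.5% of all genes). Only 1 was lower, and the median log2 ratio was 0.43. Dnajb9, a co-chaperone of BiP, was 58.2 CPM in overexpression and 10.0 CPM in the library labelled knockdown (log2 ratio 2.52, interval 2.29 to 2.79), with Dnajc3 (1.41), Sdf2l1 (1.10) and Hsp90b1 (1.10) also higher and Herpud1 lower (-1.08). Of 20 heat shock genes, 3 were higher and 3 lower (median -0.43): Hspa1b (shared sequence, 3.45), Dnajb4 (2.76) and Hspb8 (1.93) against Hspa9 (-1.39), Hsph1 (-1.33) and Ahsa1 (-1.08). The higher share of heat shock genes was a little under the 17.5% of all genes, and the lower share was about the 14.8% of all genes.

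Among 37 NRF2 and antioxidant genes, 8 were higher (21.6%, all genes 17.5%) and 3 lower (8.11%, all genes 14.8%). The median log2 ratio was 0.00. Gsta4, a glutathione transferase for lipid aldehydes, was 103 CPM in overexpression and 7.88 CPM in the library labelled knockdown (log2 ratio 3.69, interval 3.44 to 3.99). Nqo1, a quinone reductase, was 25.7 CPM in overexpression and 4.46 CPM in the library labelled knockdown (2.49), and Gclm had 1.61. Mt2 (shared sequence), a metallothionein, had 62 counts in overexpression and 1 in the library labelled knockdown, a ratio of 56.2 (counting interval 9.73 to 2257). It was measured only through overexpression. The thioredoxin reductase gene Txnrd1 (-1.49), Prdx4 (-1.5) and Gpx1 (-1.45) were lower. Enzymes of this group thus moved in both directions.

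Immediate early and MAPK feedback genes split 7 higher to 8 lower among 34 measured (median log2 ratio 0.28). Those are 20.6% and 23.5%, against 17.5% and 14.8% of all genes. Nr4a3, an orphan nuclear receptor induced within minutes of a stimulus, was 402 CPM in overexpression and 47.8 CPM in the library labelled knockdown (log2 ratio 3.07, interval 2.96 to 3.19), and the phosphatase gene Dusp1 was 38.6 CPM in overexpression and 8.14 CPM in the library labelled knockdown (2.23). Fosb (2.35) and Phlda2 (2.32) were higher at low levels. Etv4 (-2.15) and Etv5 (shared sequence, -1.93), transcription factors downstream of ERK, were lower, as were Klf4 and Ier5 (-1.86).

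In the Notch pathway 3 of 17 genes stood higher and 1 stood lower, with a median log2 ratio of 0.12. The higher share, 17.65%, was about the 17.5% of all genes. The fringe glycosyltransferase gene Mfng (2.39), the receptor gene Notch3 (1.92) and the ligand gene Jag2 (1.28) were higher, and the coactivator gene Maml3 was lower (-1.03). Among 25 apoptosis regulators 5 were higher and 2 lower. The higher share of that list was only a little above the 17.5% of all genes, and its lower share was under the 14.8% of all genes. Cflar, the caspase-8 inhibitor FLIP, was 278 CPM in overexpression and 61.5 CPM in the library labelled knockdown (log2 ratio 2.17, interval 2.08 to 2.28), and the inhibitor-of-apoptosis genes Birc2 (1.22) and Xiap (1.07) and the BCL2 relative Bok (1.25) were higher with it. Of 19 histone and DNA demethylases 4 were higher, led by Kdm7a at 124 CPM in overexpression and 20.3 CPM in the library labelled knockdown (2.60), with Tet2 (1.87), Kdm4c (1.55) and Kdm6a (1.30). Lower were Kdm4a (-1.24), Tet3 (-1.21) and Kdm2b (shared sequence, -1.15). The demethylase shares, 21.05% higher and 15.8% lower, lay near those of all genes (17.5% and 14.8%).

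Beyond the lists, the 12 highest protein-coding genes of own sequence with a mean of at least 10 CPM began with Hpse. Myom1, a protein of the sarcomere's M-band (GRCm38 chromosome 17, 71002633 to 71126856), was 61.9 CPM in overexpression and 0.656 CPM in the library labelled knockdown (log2 ratio 6.31, interval 5.67 to 7.62). Of 20 muscle-type genes 14 lay below the 1 CPM threshold, and 5 of the 6 measured were higher (83.3%, against 17.5% of all genes). Myom1 and Smtnl1, under 1 CPM in the library labelled knockdown, passed the threshold only through overexpression. With no filter the list's median log2 ratio was 0.56 in place of 1.81. The other higher members were Eno3, the muscle enolase, at 173 CPM in overexpression and 40.8 CPM in the library labelled knockdown (2.08), Mef2c (1.54) and Des (1.42). Smtnl1 had 104 counts in overexpression and 1 in the library labelled knockdown, a ratio of 94.3 (counting interval 16.6 to 3762). Myod1 and Myog, which specify skeletal muscle, were both below 1 CPM.

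Cort, the neuropeptide cortistatin, was 43.3 CPM in overexpression and 1.05 CPM in the library labelled knockdown (5.21). Rasd2, a small GTPase, was 31.7 CPM in overexpression and 0.853 CPM in the library labelled knockdown (5.02), and was measured only through overexpression. The others were the anoctamin gene Ano3 (4.58), the ephrin receptor gene Epha7 (4.44), the secreted glycoprotein gene Ecm1 (4.19), Arhgef37 (4.14), Itgb3, Trpm1 and Slc22a17, a lipocalin receptor (3.98). Cited1, a partner of the coactivators CBP and p300 expressed in pigment cells, was 280.0 CPM in overexpression and 16.9 CPM in the library labelled knockdown (log2 ratio 4.04, interval 3.87 to 4.24). Outside the pair, Myom1 was 247 CPM in conventional 3D culture and 2.94 CPM in shControl, and Cort was 78.2 CPM and 0.861 CPM there.

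At the other end, Tg, the thyroid hormone precursor thyroglobulin (GRCm38 chromosome 15, 66670753 to 66850721), was 1.49 CPM in overexpression and 138 CPM in the library labelled knockdown (log2 ratio -6.42, interval -7.17 to -5.97). Kank4, an adaptor of adhesions and the cytoskeleton, was 1.31 CPM in overexpression and 116 CPM in the library labelled knockdown (log2 ratio -6.34, interval -7.15 to -5.87). Nppb, brain natriuretic peptide, was 0.595 CPM in overexpression and 25.4 CPM in the library labelled knockdown (-5.15). It was measured only through the library labelled knockdown. Tg and Kank4 were far above shControl in the library labelled knockdown (shControl 21.0 and 15.2 CPM), whereas Nppb was near it (28.8 CPM).

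Gxylt2, a xylosyltransferase that acts on Notch, was 13.4 CPM in overexpression and 323 CPM in the library labelled knockdown (-4.58), and Slc35f1 had a log2 ratio of -4.51. Lmnb1, lamin B1 of the nuclear envelope, was 9.53 CPM in overexpression and 187 CPM in the library labelled knockdown (log2 ratio -4.28, interval -4.54 to -4.07). Akap12, a scaffold for protein kinase A, had -3.81, and Prkcq, protein kinase C θ, was 23.2 CPM in overexpression and 307 CPM in the library labelled knockdown (-3.72). The DNA helicase gene Recql4 (-3.76), Mxd3 (-3.73), Plk1 and Pimreg (-3.69), which like Lmnb1 are expressed in dividing cells, completed the 12.

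**Figure D5:**
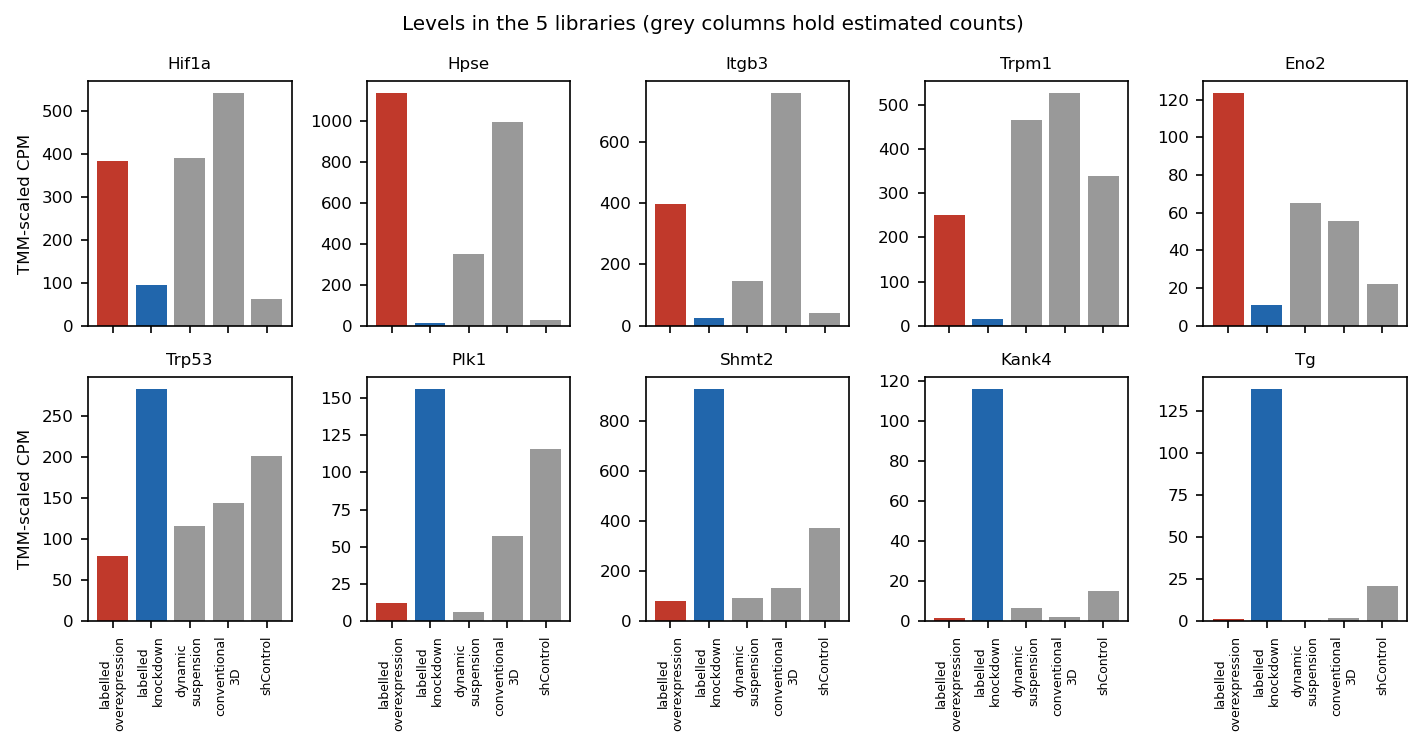
TMM-scaled CPM of 10 genes in overexpression (red), the library labelled knockdown (blue) and the 3 other libraries (grey, estimated counts), 1 library per bar. Hif1a, Hpse and Itgb3 are higher in overexpression, dynamic suspension and conventional 3D culture than in the library labelled knockdown and shControl, and Plk1 and Shmt2 show the reverse order.

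Markers of immune, endothelial, epithelial and red blood cells were low or at 0 in both libraries. Of 13 immune markers 9 had 0 counts in both, Ptprc, Cd3e, Itgam and Adgre1 included, and the summed level of 8.81 CPM in overexpression and 1.25 CPM in the library labelled knockdown was nearly all Cd68. Cd68, a lysosomal protein of macrophages, was 8.39 CPM in overexpression and 0.787 CPM in the library labelled knockdown (log2 ratio 3.22, interval 2.56 to 4.40). It passed the 1 CPM threshold only through overexpression. The 8 endothelial markers summed to 4.94 CPM in overexpression and 2.49 CPM in the library labelled knockdown, with Cdh5, Kdr and Tek at 0 counts in both and Vwf at 1.13 on the log2 scale. Epithelial markers summed to 0.953 CPM in overexpression and 0.525 CPM in the library labelled knockdown. Erythroid markers had at most 1 count per gene. Pigment cell markers were abundant in both libraries, with Pmel at 6382 CPM in overexpression and 3808 CPM in the library labelled knockdown, Mlana at 375 CPM in overexpression and 559 CPM in the library labelled knockdown and Tyrp1 at 5105 CPM in overexpression and 4790.0 CPM in the library labelled knockdown. These are defining markers of the labelled melanoma line.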

How the data were processed

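Per the labels, each library was a poly(A)-selected, strand-specific RNA-seq library of 3 pooled repeats. The authors deposited 1 table of all 5 libraries. The columns of overexpression and of the library labelled knockdown hold deposited counts, whole numbers per gene. The other 3 deposited columns are also whole numbers, but their low values pile up at 4 and 8, so they were taken as estimated counts rounded by the authors and used only for scaling factors and for levels set beside a result. The submitters' processing notes name StringTie, HISAT2 and cutadapt, and as builds mm10 and GRCm38.p6. Which tool made the counts, with what annotation and whether by strand, is not given in the sources used here. All 54100 gene IDs matched GENCODE M21 (GRCm38), which gave names, coordinates and shared sequence; promoter windows are RefSeq's. No column was left without a sample.

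TMM factors came from edgeR 4.0.16 in R 4.3.3 over all 5 libraries. With 1 library per group no test between groups was made; the intervals are exact conditional binomial (Clopper-Pearson) intervals of the count ratio, and levels have exact Poisson intervals. They were tested on simulated data. The genes and the 38 gene lists were chosen with earlier results of these data known, so a list's direction is a description. Genes named outside the lists are the 12 highest and 12 lowest protein-coding genes of own sequence with a mean of at least 10 CPM, plus Hif1a, Epas1, Trp53, Mdm2 and Cdkn1a. Alternatives tried were scaling by total counts, by TMM on the pair alone and by DESeq2 1.42.0 size factors, no filter or a mean of at least 10 CPM, prior counts of 0.5 and 10, and own-sequence coding genes only. Values of a few single genes are not reported here.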

Additional observations from a re-analysis of the deposited data

How the results depend on the processing

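No paired analysis was possible because each group is 1 library, and for the same reason no replicate could be left out. The count of genes higher beyond 2-fold was 2155 as reported and 1239 with a mean of at least 10 CPM, which keeps fewer genes by construction; the count lower was 1825 and 1318. Higher genes were 54.1% of those called as reported, 59.5% under scaling by total counts (2405 higher and 1634 lower), and 48.5% at the higher filter. All 29 named genes kept their call in every setting. Most of them were chosen for extreme ratios among own-sequence coding genes averaging at least 10 CPM. Their calls could hardly change, and they say little about other genes. Medians near 0 changed sign. For proteases and integrins the median was 0.038 under total counts and 0.159 at 10 CPM. For apoptosis it was 0.076 under total counts and 0.004 under DESeq2 size factors. For NRF2 genes it was 0.081 and 0.009 under the same 2 scalings. For demethylases it was 0.072 and 0.000 under them and 0.347 among own-sequence coding genes. For Wnt and TGF-β targets it was 0.019 under total counts, 0.170 at 10 CPM and 0.020 among own-sequence coding genes. No direction should be read for these 5 lists. Among the alternative values, 1002 were classed as the same, 39 as moved and 12 as changed in sign. The first class is wide: it holds 2917 genes higher with no filter beside 2155 as reported. Single-gene ratios that a filter cannot alter are in it too. Depth limits the low genes: 3 counts are 0.179 CPM in overexpression and 0.197 CPM in the library labelled knockdown.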

Other observations

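Long non-coding transcripts were far more often higher in overexpression than genes as a whole. Of 538 measured genes in 5 long non-coding classes, 230 were higher (42.8%, all genes 17.5%) and 60 lower (11.15%, all genes 14.8%). Their median log2 ratio was 0.74. Malat1, an abundant RNA kept in nuclear speckles, was 1240.0 CPM in overexpression and 116 CPM in the library labelled knockdown (log2 ratio 3.42, interval 3.35 to 3.49). Neat1, the scaffold of paraspeckles, was 55.2 CPM in overexpression and 27.7 CPM in the library labelled knockdown (0.99). Mir22hg, the host transcript of miR-22, had a log2 ratio of 4.16. Among long non-coding genes of own sequence with a mean of at least 10 CPM, the largest difference in the other direction was that of AI506816, at 98.6 CPM in overexpression and 882.5 CPM in the library labelled knockdown (-3.16). Snhg1, a host of small nucleolar RNAs, was lower as well (-1.55). Malat1 was 25.9 CPM in shControl.

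Processed pseudogenes went the other way, with 29 of 483 higher (6.0%, all genes 17.5%) and 137 lower (28.4%, all genes 14.8%). Their median was -0.61, and their reads are shared with parent genes. The ribosomal RNA mt-Rnr1 was 1235 CPM in overexpression and 172 CPM in the library labelled knockdown, while mt-Rnr2 had a log2 ratio of 0.37. By chromosome the median ran from -0.15 on chromosome 8 to 0.25 on chromosome X. By transcript length, genes higher beyond 2-fold were 14.1% of the shortest of 5 equal groups and 22.9% of the longest, and genes lower 15.96% and 10.3%.

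Among genes with shared sequence, Kcnj13, a potassium channel, had 1617 counts in overexpression and 2 in the library labelled knockdown. That is a ratio of 734 (counting interval 203 to 6062), and it was measured only through overexpression. Mest, an imprinted hydrolase gene, was 4.88 CPM in overexpression and 109.8 CPM in the library labelled knockdown (log2 ratio -4.46). The Y-linked genes Kdm5d, Uty, Ddx3y and Eif2s3y and the X-linked Xist had 0 counts in both libraries.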
